A study of Mus musculus with 4 samples.

Results

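Excitatory neurons of the mouse hippocampus that carry much Rspo2 RNA without the marker genes of field CA3 were examined in single-nucleus RNA sequencing data. A nucleus was a member where its barcode held at least 5000 UMIs (unique molecular identifiers, each standing for 1 captured RNA molecule), at least 4 UMIs of Rspo2 and at least 1 of Slc17a7, the vesicular glutamate transporter of most forebrain excitatory neurons. It also had at most 2 UMIs of the CA3 markers Nectin3, Bicc1 and Cd109 together, at most 1 of the dentate marker Prox1, and at most 1 of the inhibitory markers Gad1 and Gad2 together. These rules kept 1177 of 32572 nuclei. The members numbered 312 and 254 in the 2 Control libraries and 326 and 285 in the 2 Kat6a-cKO libraries.

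All libraries were made from hippocampal tissue of adult mice with a Kat6a gene flanked by loxP sites (Kat6a-f/f). Control mice carried no other labelled allele, and Kat6a-cKO mice also carried NEX-cre, a Cre recombinase driven from the Neurod6 locus, which is active in forebrain excitatory neurons. Sex, the number of mice per library, and day or batch are not given in the labels. The p-values below therefore measure the spread between libraries, which may be partly technical. Kat6a encodes a histone acetyltransferase, and the title of the series links its loss to RSPO2 and Wnt signalling in CA3.

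R-spondins are secreted proteins that bind Lgr receptors and hold back the ubiquitin ligases Znrf3 and Rnf43, which remove Wnt receptors from the cell surface. A cell that releases an R-spondin can thereby raise the response of neighbouring cells to Wnt ligands. CA3 pyramidal cells are 1 of the places where Rspo2 is found in the hippocampal formation. The subiculum, which receives the output of CA1 and sends axons out of the hippocampus, is another part of the formation built of excitatory neurons.

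The members had median counts of 18920 to 23211.5 UMIs per library, against 23977 to 25960 for the Rspo2-rich nuclei with CA3 markers, 14155 to 14794 for the Rspo2-poor nuclei outside CA3 and 13924 to 14666 for all nuclei of at least 5000 UMIs. Their summed counts were 5303328 to 7307956 UMIs per library. Barcode sequences shared between libraries numbered 15 to 20 per pair of libraries. The doublet caller Scrublet marked 10 and 3 members in Control against 3 and 11 in Kat6a-cKO, and these were kept. Levels are given as CPM, counts per 1000000 summed UMIs of a set of nuclei. They have no correction for gene length and are compared for 1 gene at a time. Markers of glia and choroid plexus were lower in the members than in barcodes of 10 to 100 UMIs, which hold free RNA. The 6 oligodendrocyte markers summed to 119 to 182 CPM per library of members (1930 to 2115 CPM in free RNA), and the 5 microglia markers to 89.2 to 114 CPM (1656 to 1994 CPM). The 5 astrocyte markers summed to 12.7 to 18.5 CPM (198 to 282 CPM) and the 5 choroid plexus and ependymal markers to 6.72 to 16.0 CPM (5179 to 6529 CPM).

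Rspo2 (chromosome 15, 43020794 to 43170826, minus strand, mm10) had 557 and 533 CPM in the members of Control and 488 and 457 CPM in those of Kat6a-cKO. The median member held 10 and 8 Rspo2 UMIs in Control against 7 and 7 in Kat6a-cKO. The 2 values of Kat6a-cKO were the lower ones, and their median depth was also lower (18920 and 20172 against 23211.5 and 20492 UMIs). A minimum of Rspo2 chose these nuclei, so the level is a description and was not tested. Glutamatergic nuclei outside CA3 with at most 3 Rspo2 UMIs, called Rspo2-poor nuclei here, numbered 9367 and held 16.5 to 21.1 CPM of Rspo2. Rspo2-rich nuclei with at least 3 UMIs of the CA3 markers, called CA3-marker nuclei here, numbered 695 and held 275 to 296 CPM. Rspo2 was thus at a higher level in the members than in the CA3-marker nuclei of each library, again as a description.

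No gap separated the members from the nuclei just outside the rule. The 200 nuclei with 4 Rspo2 UMIs had 35.8 CPM of Fn1 and 819 CPM of Zbtb20, and the 308 nuclei with 3 UMIs had 19.8 and 1071 CPM. Over all bins, Fn1 went from 1.67 CPM in nuclei without a Rspo2 UMI to 115 CPM in nuclei with 10 or more. Rxfp1, a relaxin receptor, went from 4.02 to 132 CPM, and Slc17a6, a second vesicular glutamate transporter, from 6.06 to 64.9 CPM. Brinp3 went from 148 to 1031 CPM. Zbtb20, a transcription factor of hippocampal pyramidal and granule neurons, went the other way, from 2469 to 143 CPM. The median depth of these bins also differed, from 13839 UMIs without a Rspo2 UMI to 22759.5 with 10 or more, and its part in the trend was not tested.

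**Figure D1:**
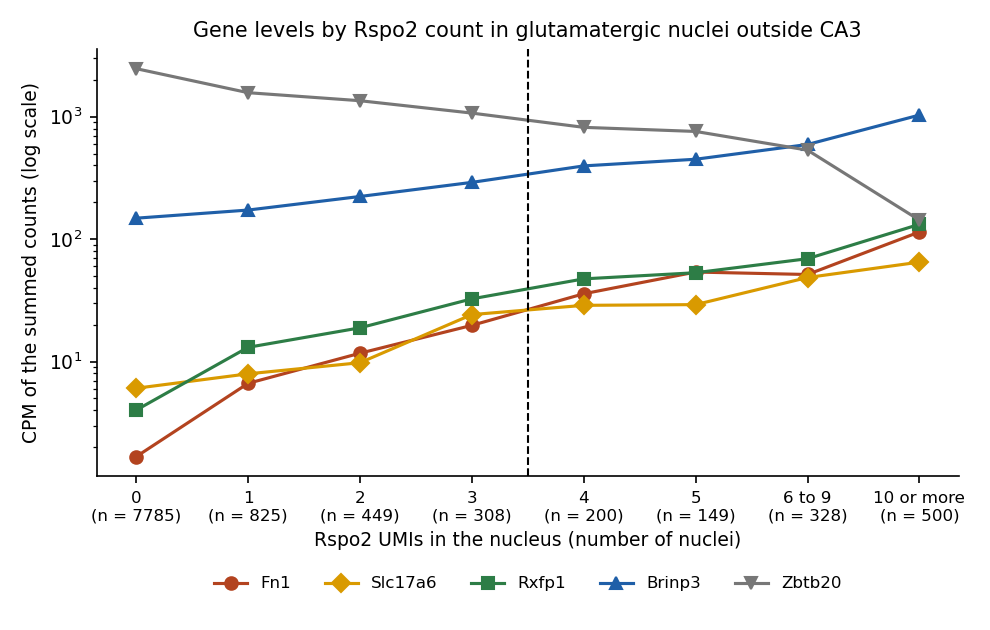
CPM of 5 genes (log axis) in glutamatergic nuclei outside CA3, grouped by their count of Rspo2 UMIs, with all 4 libraries summed and the number of nuclei under each bin. The dashed line marks the minimum of 4 UMIs for members. Fn1 goes from 1.67 to 115 CPM and Zbtb20 from 2469 to 143 CPM across the bins.

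On the CA3 side the rule cut through a similar slope. Rspo2-rich nuclei with 2 CA3 marker UMIs numbered 172 and had 219 CPM of Grik4, a kainate receptor subunit typical of CA3, and 62.8 CPM of Fn1. The 91 nuclei with 3 such UMIs had 281 CPM of Grik4 and 24.1 CPM of Fn1. Nuclei with 10 or more had 1250 and 2.35 CPM, and nuclei with none had 114 and 90.8 CPM.

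Of the 20 genes that stood highest in the members against each of the other sets, 9 were on both lists, among them Fn1, Brinp3, Elfn1 and Etv5. This ranking took the smallest of the 4 within-library ratios (CPM + 5), left out the gate genes and is a description, since the gate fixed the sets. Fn1, which encodes fibronectin and marks subicular neurons, led the ranking against the Rspo2-poor nuclei. It had 82.9 and 84.1 CPM in Control members and 66.9 and 83.7 CPM in Kat6a-cKO members. Its mean was 79.4 CPM in members, 9.34 CPM in CA3-marker nuclei and 3.44 CPM in Rspo2-poor nuclei. In free RNA Fn1 stood at 141 CPM, a higher level than in any of the 3 sets. Rxfp1 (93.1 CPM in members, 15.7 in CA3-marker and 6.91 in Rspo2-poor nuclei) and Elfn1, a postsynaptic adhesion protein (84.0, 11.3 and 14.5 CPM), had the same order of members over both sets. So did Brinp3, with 748, 130 and 161 CPM, and the transcription factors Etv5, with 204, 49.8 and 44.0 CPM, and Etv1, with 333, 71.5 and 101 CPM. Slc17a6 was at 51.4, 10.0 and 7.15 CPM, and Grm8, a presynaptic glutamate receptor, at 1166, 317 and 270 CPM. Ntng1, an axonal netrin-G protein, was at 688, 147 and 291 CPM.

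Of the 10 genes that stood lowest in the members, 0 were shared by both comparisons. Against CA3-marker nuclei the lowest ratio was that of Trps1, a transcription factor, with 42.9 CPM in members and 1763 CPM in CA3-marker nuclei. Ccbe1 was at 26.8 against 630 CPM, Dpf3, a chromatin reader, at 16.3 against 373 CPM, and Trhde, a peptidase that degrades thyrotropin-releasing hormone, at 60.9 against 925 CPM. Of the CA3 markers that the rule did not use, Grik4 was at 135 against 951 CPM and Iyd at 0.229 against 16.7 CPM, while Coch was near the same level in both (2.42 and 2.92 CPM). Against Rspo2-poor nuclei the lowest were Adarb2 (36.4 against 359 CPM), the Notch coactivator Maml2 (51.4 against 440 CPM) and the zinc finger factor Glis3 (15.3 against 184 CPM). Zbtb20 was at 420 CPM in members, 2267 in Rspo2-poor and 2883 in CA3-marker nuclei.

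**Figure D2:**
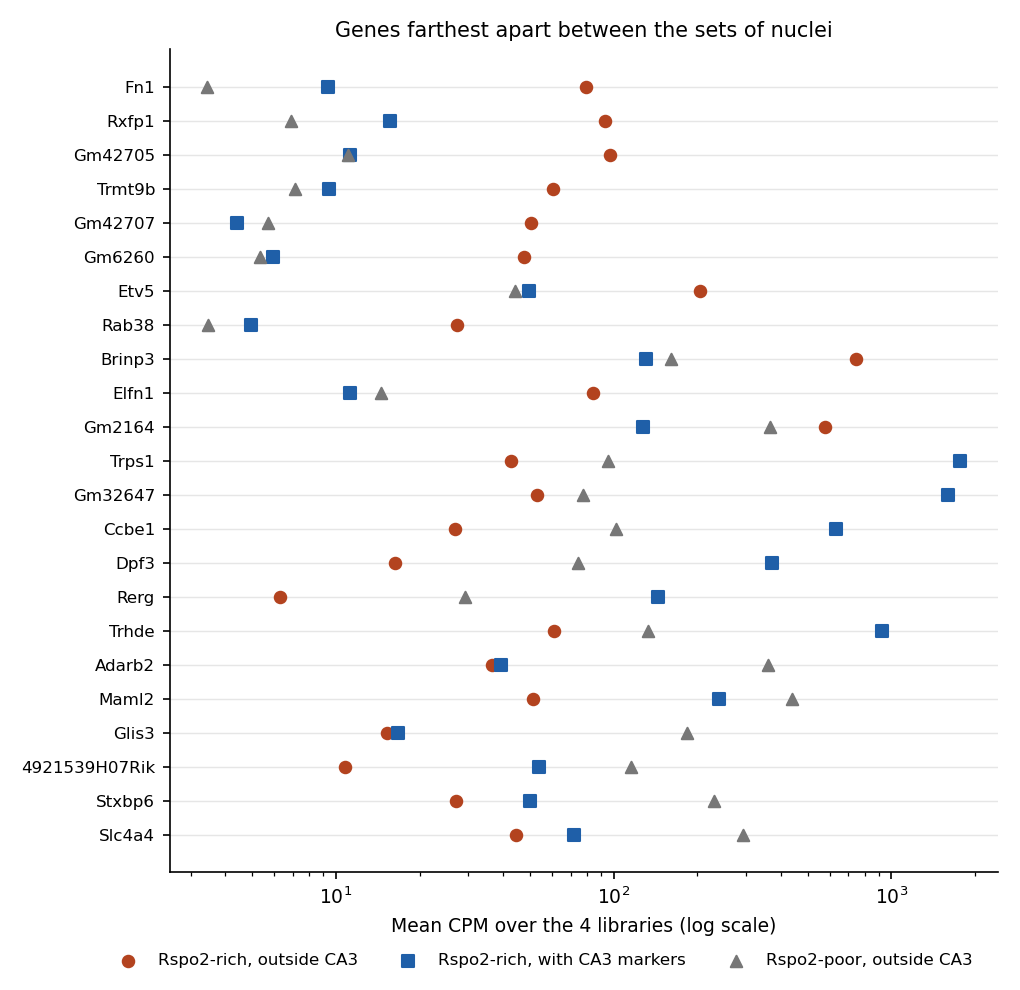
Mean CPM over the 4 libraries (log axis) of the leading genes in members (circles), CA3-marker nuclei (squares) and Rspo2-poor nuclei (triangles). Fn1 is at 79.4, 9.34 and 3.44 CPM and Trps1 at 42.9, 1763 and 95.3 CPM.

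The marker lists of subiculum and of cortical layers 4 and 5 were higher in the members than in both other sets. The 5 subiculum markers (Fn1, Nts, Slc17a6, Tshz2 and Vwc2l) summed to 596 to 1029 CPM in the members of a library, to 247 to 526 CPM in CA3-marker nuclei and to 169 to 400 CPM in Rspo2-poor nuclei. Within the members the sum was 993 and 1029 CPM in Control against 596 and 769 CPM in Kat6a-cKO, most of it Tshz2. Markers of cortical layers 4 and 5 summed to 682 to 762 CPM in members, against 187 to 223 and 411 to 457 CPM. Of these markers Etv1 had the largest gap in CPM to Rspo2-poor nuclei (mean 333 against 101 CPM). Rorb, Fezf2 and Deptor were also higher in members, at lower levels, and Bcl11b was not (275 against 284 CPM). The 5 basolateral amygdala markers, of which Etv1 is also in the layer 4 and 5 list, summed to 520 to 570 CPM in members, against 217 to 291 and 384 to 419 CPM. That difference came with Etv1, at a mean of 333 CPM over the libraries of members against 101 CPM in Rspo2-poor nuclei, while Lmo3 (129 against 175 CPM) and Meis2 (82.1 against 121 CPM) stood lower in members. The 6 CA3 markers outside the rule summed to 468 to 536 CPM in members and to 1909 to 2249 CPM in CA3-marker nuclei. The 5 remaining dentate granule markers summed to 52.1 to 64.0 CPM in members and to 407 to 578 CPM in Rspo2-poor nuclei. CA1 markers summed to 665 to 802 CPM in members and 709 to 784 CPM in Rspo2-poor nuclei, so those ranges overlapped. Every listed marker had at least 1 UMI in some library of members. The labels name only hippocampus, and these lists do not show where in the tissue a nucleus lay.

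Clustering of the members without the gate genes gave 12 sub-clusters. The genes that lead a sub-cluster define it and are no result. The largest, sub-cluster 1, held 234 nuclei (70 and 52 in Control, 48 and 64 in Kat6a-cKO). It met the rule for a subiculum-like name with 4 of 5 markers raised, among them Fn1 at 231 CPM, Slc17a6 at 122 CPM and Tshz2 at 1166 CPM. Sub-cluster 6 held 94 nuclei and was cortical layer 6-like, with 6 of 7 markers raised and Foxp2 at 432 CPM as its leading gene. Sub-cluster 10 held 36 nuclei and was dentate granule-like by 6 of 6 markers. Of its nuclei 21 were doublet calls, and its median depth was 28726.5 UMIs.

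The other 9 sub-clusters stayed unnamed and are given by their leading genes. Sub-cluster 2 held 188 nuclei led by Sox2ot, Cdh4 and Klhl1. Sub-cluster 3 (147 nuclei) was led by Col5a2, Tox3 and Evc2, sub-cluster 4 (137 nuclei) by Dlk1 and Ros1, and sub-cluster 5 (113 nuclei) by Zfhx4 and Kcnc2, with Zbtb20 at 1710 CPM. Sub-cluster 7 held 76 nuclei led by Kcnh8, Nxph1 and Mcc, with Tshz2 at 1992 CPM. Sub-cluster 8 held 60 nuclei led by Npsr1, Angpt1 and St8sia2, and had the highest Fn1 level of all sub-clusters, at 358 CPM. Sub-cluster 9 (41 nuclei) was led by Gm32647 and Camk2d. Sub-cluster 11 (29 nuclei) had 5 of 6 oligodendrocyte markers raised, a glial class that gave no name, and was led by the neuronal genes Pdzrn3 and Cux2. Sub-cluster 12 (22 nuclei, led by Ccbe1) had 4 of 9 CA3 and 3 of 5 CA2 markers raised.

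Fn1 was thus a gene of some members only. It was at 202 to 248 CPM in sub-cluster 1 and 259 to 533 CPM in sub-cluster 8 of each library. In sub-clusters 4, 11 and 12 it had 0 UMIs in every library. Rspo2 itself was less unequal, but the rule gave every member at least 4 Rspo2 UMIs and set no minimum of Fn1. The gate thus set this contrast in part. Median depth also differed, from 12234 UMIs in sub-cluster 11 to 28726.5 in sub-cluster 10, and its part was not tested. As a description, Rspo2 was highest in sub-cluster 8 (887, 985, 871 and 629 CPM in Control 1, Control 2, Kat6a-cKO 1 and Kat6a-cKO 2). It was lowest in sub-clusters 12 and 5, at 298 and 299 CPM over all libraries. Sub-clusters 4, 7 and 1 followed sub-cluster 8 at 620, 601 and 595 CPM, and their library values overlapped. The value of Kat6a-cKO 2 in sub-cluster 8 lay within their range.

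**Figure D3:**
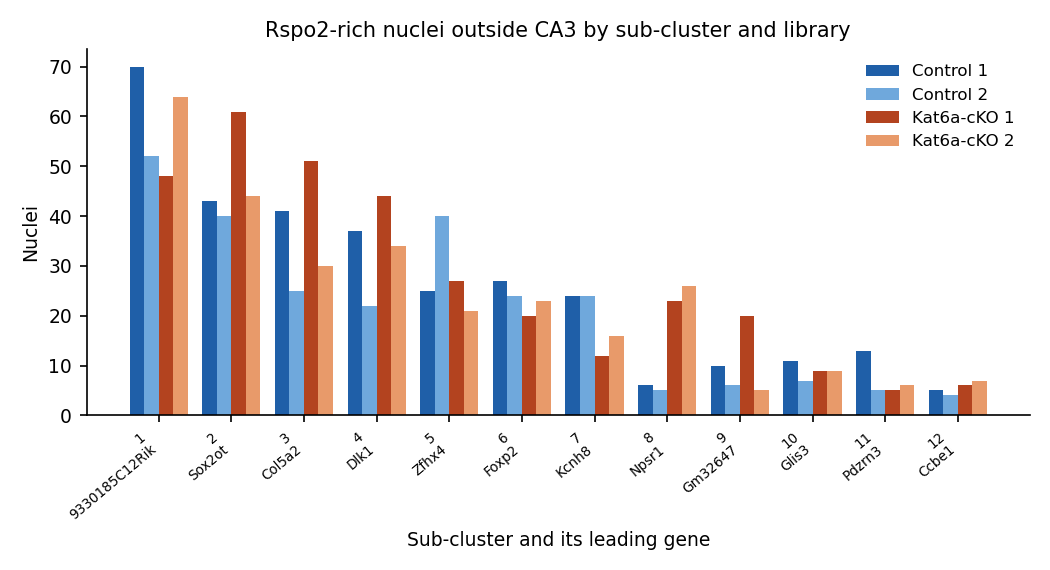
Number of members in each sub-cluster (x axis, with the leading gene) in each of the 4 libraries (bars). Sub-cluster 1 has 48 to 70 nuclei per library, and sub-cluster 8 has 6 and 5 in Control against 23 and 26 in Kat6a-cKO.

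Across the 12 sub-clusters and the 2 other sets of nuclei, 5 genes followed Rspo2 most closely by rank. They were Ank1 (Spearman rho 0.92), Gm13832 (0.90), Gfod2 (0.88), Mir124-2hg (0.87) and Xylt1 (0.87), out of 5798 genes ranked over 14 points. Ank1 encodes a membrane skeleton protein, and Xylt1 an enzyme of proteoglycan synthesis. The Rspo2 gate drew these points and so set their Rspo2 levels in part. The 5 genes are the highest of all those ranked, and the points share 4 libraries. These values are therefore a description only.

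The share of glutamatergic nuclei that were members differed between genotypes by less than the spread between libraries. It was 8.52% and 6.58% in Control against 7.99% and 6.71% in Kat6a-cKO, so the groups overlapped. The means were 7.55% ± 1.37 (SD, n = 2) and 7.35% ± 0.908 (SD, n = 2), with an exact permutation p of 1 (two-sided). The smallest p that this design allows is 0.333. The sign of the difference turned without Control replicate 1 (0.773 percentage points) and without Kat6a-cKO replicate 2 (0.444 points).

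The targeted gene did not pass the threshold in the members. Kat6a had 75.3 and 74.7 CPM in Control members against 70.0 and 60.5 CPM in Kat6a-cKO members, a log2 fold change of −0.17 ± 0.11 (SE, n = 2; edgeR adjusted p 0.801). The labels do not give the deleted part, and counts over the whole gene cannot tell a transcript that lacks it from a full one. Neurod6, which NEX-cre sits in, had 23.4 and 30.9 against 20.0 and 17.0 CPM, with a log2 fold change of −0.51 ± 0.17 (adjusted p 0.537). An entry of the files named for cre had 0 UMIs in the members of both Control libraries and 7 and 3 UMIs in Kat6a-cKO members.

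Kat6a-cKO was compared with Control within the members to ask which of their genes differ by genotype. Very few passed the threshold when all members of a library were summed. The edgeR quasi-likelihood test with a Benjamini-Hochberg adjusted p under 0.05 called 2 of 12974 genes (0.0154%), 1 in each direction (0.00771% each). Gm3279 rose and Hpse2 fell. At an unadjusted p under 0.05 there were 924 genes (7.12%), 400 higher (3.08%) and 524 lower (4.04%) in the Kat6a-cKO libraries. The count of 2 rose with most changes of the setting. It was 14, 25, 5 and 222 without Control 1, Control 2, Kat6a-cKO 1 and Kat6a-cKO 2, and 16 with DESeq2.

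Gm3279, a long noncoding RNA, lies beside Neurod6, where the NEX-cre allele was placed. Its position is chromosome 6, 55684571 to 55694574, plus strand, and that of Neurod6 is 55677822 to 55681263, minus strand (mm10, GENCODE M21). It had 1.51 and 1.89 CPM in Control against 25.7 and 28.0 CPM in Kat6a-cKO. The log2 fold change was 4.02 ± 0.23 (SE, n = 2 libraries in each genotype), with an edgeR adjusted p of 4.08e-05. It also rose in CA3-marker nuclei (1.83 and 1.33 against 41.7 and 36.6 CPM), as the only gene called there of 12185 (0.00821%), and in Rspo2-poor nuclei (1.22 and 1.49 against 28.5 and 31.0 CPM). Within the members the same order appeared in each of the 12 sub-clusters, where every Kat6a-cKO library lay above every Control library.

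Hpse2 encodes heparanase 2, a secreted protein that binds heparan sulfate. It spans chromosome 19, 42786539 to 43388355, minus strand, and 4 other annotated genes overlap it. Members had 220 and 86 UMIs in Control against 25 and 21 in Kat6a-cKO, which came to 30.1 and 16.2 against 3.82 and 3.50 CPM. The groups did not overlap, and Control 1 was the highest library. The log2 fold change was −2.66 ± 0.33 (SE, n = 2 libraries in each genotype), with an edgeR adjusted p of 0.0403. The level in free RNA was 2.91 and 6.76 CPM in Control against 2.88 and 5.02 CPM in Kat6a-cKO, so the members of Kat6a-cKO stood near it. The CA3-marker nuclei had 3.50 and 2.84 against 4.33 and 3.32 CPM, and the Rspo2-poor nuclei 5.59 and 4.36 against 6.54 and 3.91 CPM.

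The Hpse2 difference lay in sub-clusters 1 and 8, the ones with over 100 CPM of Fn1. In sub-cluster 1 Hpse2 was at 86.8 and 38.0 CPM in Control against 7.54 and 2.02 CPM in Kat6a-cKO. In sub-cluster 8 it was at 224 and 129 against 2.55 and 5.88 CPM, over only 6 and 5 Control nuclei. In no other sub-cluster did a library exceed 14.9 CPM. Without sub-cluster 1 the log2 fold change was −1.45 (adjusted p 0.229), and without sub-clusters 1 and 8 it was −0.59 (adjusted p 0.772). The fall also lost the threshold, at nearly the same size, without sub-cluster 10 (adjusted p 0.0751) or 11 (0.0526), and with a minimum of 10 CPM (0.0501).

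The Hpse2 difference was also present in nuclei chosen without Rspo2. Glutamatergic nuclei outside CA3 were taken with at least 2 Fn1 UMIs and any number of Rspo2 UMIs, a choice made after the data had been seen, so these values carry no test. There were 105 and 90 such nuclei in Control against 111 and 113 in Kat6a-cKO. Hpse2 was at 78.4 and 34.3 CPM in Control against 4.21 and 3.51 CPM in Kat6a-cKO. Rspo2 in the same nuclei was at 622 and 521 against 449 and 404 CPM. Of them, 89.5% and 75.6% in Control against 68.5% and 74.3% in Kat6a-cKO had at least 4 Rspo2 UMIs. The median depth was 25322 and 22451.5 UMIs in Control against 20387 and 21493 in Kat6a-cKO, so depth moved with the Rspo2 share, and its part was not tested.

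**Figure D4:**
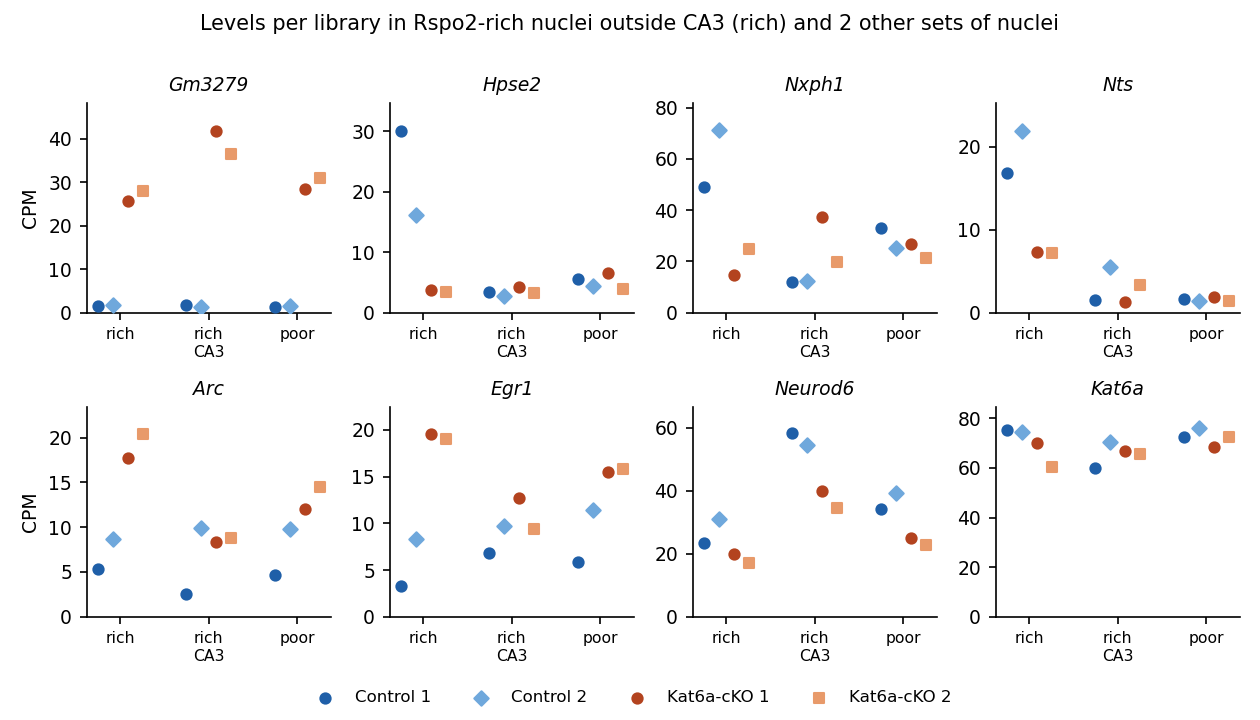
CPM per library (points) of 8 genes in members (rich), CA3-marker nuclei (rich CA3) and Rspo2-poor nuclei (poor), each panel with its own linear axis from 0. Hpse2 in members is at 30.1 and 16.2 CPM in Control against 3.82 and 3.50 CPM in Kat6a-cKO, and Gm3279 is higher in Kat6a-cKO in all 3 sets.

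Below the threshold, the genes with the smallest p values are given as values only. Nts, the precursor of the peptide neurotensin, had 16.8 and 21.9 CPM in Control against 7.33 and 7.17 CPM in Kat6a-cKO, a log2 fold change of −1.37 ± 0.20 (edgeR adjusted p 0.0778). A gene listed as Arhgap26 under the identifier ENSMUSG00000118193.1 had 37.4 and 36.8 against 18.2 and 19.0 CPM, a log2 fold change of −0.97 ± 0.14 (adjusted p 0.0743). Galntl6 had a log2 fold change of −0.51 (adjusted p 0.16). On the other side, Efna5, an axon guidance ligand, had 197 and 194 against 350 and 275 CPM, a log2 fold change of 0.71 ± 0.12 (adjusted p 0.165). Pdzd2 had a log2 fold change of 0.59 (adjusted p 0.165). Sv2c, a synaptic vesicle protein, had 23.0 and 9.05 against 3.06 and 2.83 CPM and a log2 fold change of −2.46 ± 0.43 (adjusted p 0.165). In each of these genes the libraries of the genotypes did not overlap. A choice by small p favours that order, and the share of all genes with it is not given here, so it adds no evidence.

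Nxph1, which encodes a ligand of neurexins, stood highest in 1 sub-cluster. It had 49.1 and 71.3 CPM in Control members and 14.7 and 25.0 CPM in Kat6a-cKO members, with a log2 fold change of −1.57 ± 0.22 (edgeR adjusted p 0.0743). It passed the threshold under 15 of 27 other settings, and in members with 2 Fn1 UMIs it fell by 3.70 on the log2 scale (adjusted p 0.00709). The Fn1-rich sub-clusters held few Nxph1 UMIs, 8 and 0 against 0 and 5 in sub-cluster 1 and 0 and 0 against 2 and 4 in sub-cluster 8. In sub-cluster 7, which Nxph1 helps to define, it stood at 851 and 881 against 221 and 359 CPM. Fn1 had 22 and 12 against 8 and 1 UMIs in sub-cluster 7. No nucleus of it from Kat6a-cKO 2 could thus be among the members with 2 Fn1 UMIs. That sub-cluster held 24 and 24 Control and 12 and 16 Kat6a-cKO nuclei. In the sums over all members and over those with 2 Fn1 UMIs, fewer such nuclei and less RNA per nucleus cannot be told apart. Kcnh8, another leading gene, was at 780 and 641 against 699 and 929 CPM within sub-cluster 7, so its genotypes overlapped there. Without sub-cluster 7 the log2 fold change of Nxph1 turned to 1.86 (adjusted p 0.0673), with 29 UMIs in sub-cluster 9 of Kat6a-cKO 2 and 32 in sub-cluster 2 of Kat6a-cKO 1.

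**Figure D5:**
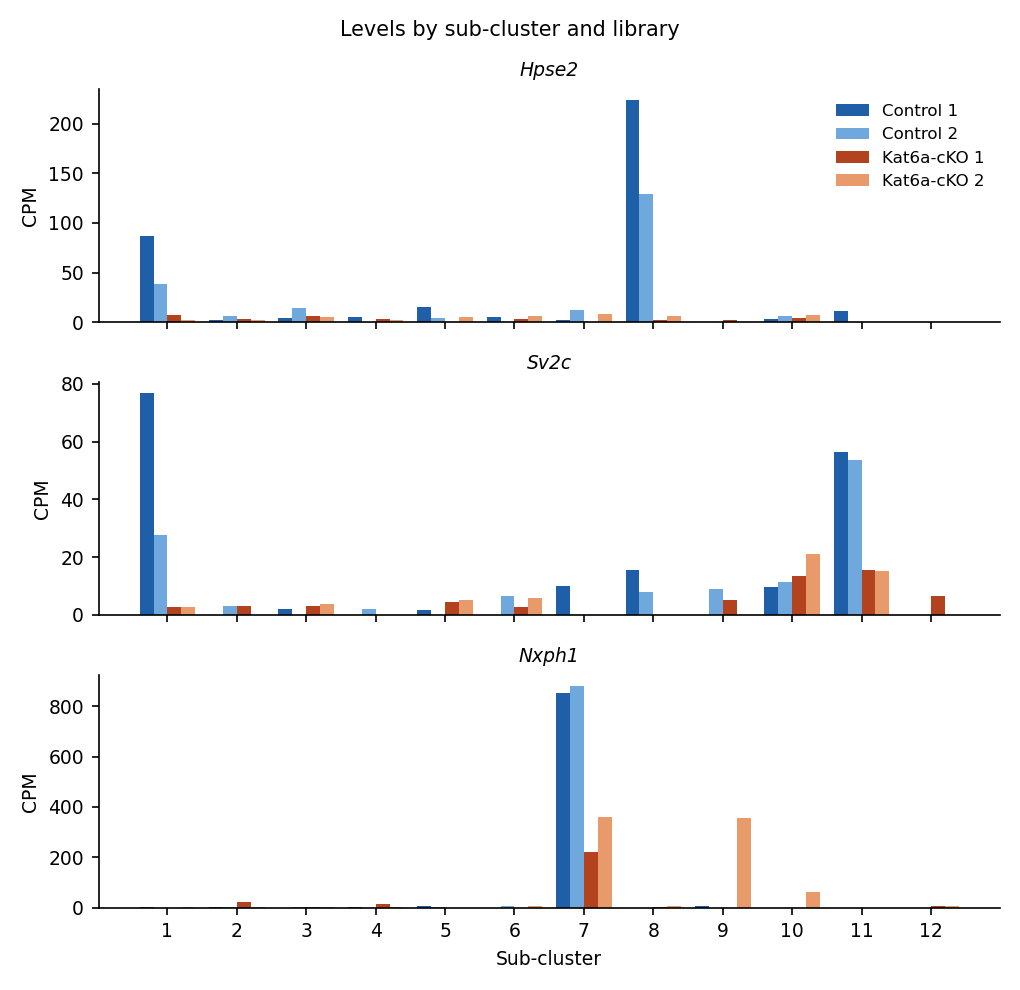
CPM of Hpse2, Sv2c and Nxph1 in each sub-cluster (x axis) and library (bars), with linear axes from 0. Control bars stand high in sub-clusters 1 and 8 for Hpse2 (86.8 and 38.0, 224 and 129 CPM), in sub-clusters 1 and 11 for Sv2c and in sub-cluster 7 for Nxph1 (851 and 881 CPM).

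Immediate early genes, which are transcribed within minutes of neuronal activity, had positive differences in Kat6a-cKO members throughout, although edgeR called 0 of them. Of 17 genes 15 could be tested, and all 15 had a positive log2 fold change. The median of the 15 was 0.93, against −0.002 over all 12974 genes. An unadjusted p under 0.05 was reached by 10 in the upward direction, where 3.08% of all genes reached it, and DESeq2 called 2 of the 15. Arc, whose product acts at synapses, had 5.34 and 8.67 CPM in Control against 17.7 and 20.3 CPM in Kat6a-cKO, a log2 fold change of 1.50 ± 0.22 (edgeR adjusted p 0.0798). The transcription factor Egr1 had 3.28 and 8.30 against 19.6 and 19.0 CPM, a log2 fold change of 1.84 ± 0.30 (adjusted p 0.136). Fos had 1.23 and 1.89 against 5.50 and 4.67 CPM, from 9 and 10 against 36 and 28 UMIs. Npas4 had 1.78 and 3.96 against 7.64 and 7.67 CPM. Nr4a1 and Nr4a2 had log2 fold changes of 0.09 and 0.05. Arc and Egr1 each passed the threshold under 12 of 29 other settings and kept their sign in all of them.

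The same genes were compared in the other nuclei and in free RNA. In Rspo2-poor nuclei Egr1 had 5.84 and 11.4 against 15.4 and 15.8 CPM, a log2 fold change of 0.87 (edgeR adjusted p 0.248), and Arc one of 0.89 (0.294). In CA3-marker nuclei the log2 fold changes were 0.46 for Egr1 (0.831) and 0.52 for Arc (0.906). Barcodes of 10 to 100 UMIs held 209 and 243 CPM of Egr1 in Control against 291 and 210 CPM in Kat6a-cKO, and 415 and 721 against 595 and 430 CPM of Fos. The genotypes overlapped there, and the part of free RNA in the members' values was not tested.

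Genes of the R-spondin and Wnt pathway did not pass the threshold in the members. Of the R-spondins, Lgr receptors and ligases other than Rspo2, 5 of 8 could be tested, 0 were called and 0 reached an unadjusted p under 0.05. Of all 12974 genes 0.0154% were called and 7.12% reached that p, 3.08% higher and 4.04% lower. The counts of the short lists below are read against these shares. Rspo3, a related R-spondin, had 28.1 and 28.3 CPM in Control against 35.3 and 27.8 CPM in Kat6a-cKO. Lgr4, an R-spondin receptor, had 51.3 and 45.3 against 46.9 and 43.9 CPM. Znrf3 had 38.3 and 51.3 against 46.3 and 36.0 CPM. The genotypes overlapped in Rspo3, Lgr4 and Znrf3. Those of the receptor Lgr6 did not, with Kat6a-cKO lower, at a mean of 2.21 CPM in members. Its log2 fold change was −0.88 (edgeR adjusted p 0.717). Of 19 Wnt ligands 7 were tested and 0 were called or reached that p. The Wnt receptors counted 6 tested of 15, with 1 higher at an unadjusted p under 0.05. That gene was the coreceptor Lrp6, with 88.9 and 88.1 against 120 and 106 CPM and a log2 fold change of 0.38 (edgeR adjusted p 0.432). Wnt antagonists counted 5 tested of 14, with 1 higher and 1 lower. The higher one was Apcdd1, with a log2 fold change of 1.30 (edgeR adjusted p 0.583) and a mean of 1.53 CPM in members. The lower one was Dkk2, with −1.93 (adjusted p 0.438) and a mean of 2.75 CPM. The genotypes did not overlap in Apcdd1 or Dkk2. The β-catenin pathway and its targets counted 11 tested of 16, with 0 in either direction. DESeq2 called 0 genes of these 5 lists.

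Other lists likewise held no called gene in edgeR except Gm3279, which stands in a list that was picked on these libraries and is no independent evidence. The glutamate receptors (23 tested of 24) had 1 higher at an unadjusted p under 0.05, which 3.08% of all genes reached upward and 4.04% downward, and a median log2 fold change of 0.06. The counts that follow use the same p and are read against the same shares of all genes. The potassium and HCN channels (25 of 25) had 2 higher and 3 lower, and the axon guidance genes (34 of 34) had 6 higher and 3 lower. The cadherins (20 of 20) had 5 higher and 1 lower, with a median of 0.14. The neuropeptides and growth factors (13 of 18) had 0 higher and 4 lower, led by Nts. The transcription factors of cortical areas and layers (27 of 29) had 1 higher and 5 lower. The gene of smallest p among these was Tshz2, a zinc finger factor of subicular and deep cortical neurons, with 735 and 714 against 404 and 528 CPM and a log2 fold change of −0.61 ± 0.11 (edgeR adjusted p 0.165). The KAT6 complex genes (7 of 8) had 0 in either direction. DESeq2 called 1 axon guidance gene higher, and 2 neuropeptide or growth factor genes and 1 transcription factor gene lower.

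Within the subiculum-like sub-cluster alone, many more genes were called. The edgeR test called 134 of 8758 genes (1.53%), 80 higher (0.913%) and 54 lower (0.617%), from 48 to 70 nuclei per library. The count was 54, 97, 79 and 144 without Control 1, Control 2, Kat6a-cKO 1 and Kat6a-cKO 2. DESeq2 called 43. The sub-cluster was drawn from the expression of these same nuclei, and sub-cluster 8, the other Fn1-rich one, held 6 and 5 Control and 23 and 26 Kat6a-cKO nuclei. For this reason 2 other choices of nuclei were also tested, both made after the data had been seen. With sub-clusters 1 and 8 pooled, edgeR called 116 of 9343 genes (1.24%). In members with at least 2 Fn1 UMIs, whatever their sub-cluster, it called 12 of 9581 (0.125%). Both choices share libraries and nuclei with sub-cluster 1, so neither is an independent check. Sub-cluster 1 held 458 of 606 and 313 of 446 Fn1 UMIs of members in Control. In Kat6a-cKO it held 214 of 438 and 333 of 502. The other sub-clusters were also tested alone. The 41 nuclei of sub-cluster 9 gave 41 called genes of 3143, so a high count was not particular to sub-cluster 1. Sub-clusters 2, 5 and 8 gave 10 of 8196, 7 of 5902 and 2 of 4067, and the rest 0 to 3 called genes.

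Hpse2 and Sv2c fell in sub-cluster 1. Among called genes of at least 10 CPM whose genotypes did not overlap, their falls were the largest. The log2 fold change of Hpse2 was −3.86 ± 0.42 (edgeR adjusted p 2.48e-08), with sub-clusters 1 and 8 pooled it was −4.03 ± 0.41 (adjusted p 2.34e-05), and in members with 2 Fn1 UMIs it was −3.89 ± 0.44 (adjusted p 0.00709). In sub-cluster 1 it ranged from −4.96 without Kat6a-cKO 1 to −3.04 without Control 1, and was −3.06 without Kat6a-cKO 2. Sv2c is also used as a marker of hilar mossy cells. In sub-cluster 1 it had 76.8 and 27.7 CPM in Control against 2.83 and 2.69 CPM in Kat6a-cKO. Its log2 fold change was −4.26 ± 0.47 (adjusted p 3.41e-08) in the sub-cluster, −4.61 ± 0.55 (adjusted p 0.000108) with sub-clusters 1 and 8 pooled and −4.29 ± 0.71 (adjusted p 0.0546) in members with 2 Fn1 UMIs. Control 1 was the highest library, and without it the value in the sub-cluster was −3.24 (adjusted p 0.0012). Among the other mossy cell markers, Csf2rb2 was at 0.193 CPM and Drd2 at 0.352 CPM in members. The 6 mossy cell markers together were at 14.8 to 30.7 CPM in members and 61.9 to 85.3 CPM in CA3-marker nuclei. Nts fell in the sub-cluster, from 46.3 and 64.1 to 25.4 and 10.8 CPM, with a log2 fold change of −1.64 ± 0.29 (adjusted p 0.000277). That of Nts was −1.52 (adjusted p 0.00232) with sub-clusters 1 and 8 pooled and −1.31 (adjusted p 0.0714) in members with 2 Fn1 UMIs. In the sub-cluster it was −1.04 (adjusted p 0.0524) without Kat6a-cKO 2, the lowest library, and −2.32 without Kat6a-cKO 1. Tshz2 fell by 0.63 on the log2 scale (1430 and 1328 against 822 and 936 CPM, adjusted p 7.72e-06), and its value was −0.55 (adjusted p 0.00121) and −0.42 (adjusted p 0.123) under the other choices, in the same order.

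Klhl1, Luzp2, Spock3 and Egr1 rose in sub-cluster 1, in sub-clusters 1 and 8 pooled and in members with 2 Fn1 UMIs. In the pool their log2 fold changes were 2.09 (edgeR adjusted p 4.25e-05), 1.86 (4.43e-07), 2.18 (0.00175) and 2.31 (0.00275), in that order. Sub-cluster 1 is part of the pool and shares nuclei with the members with 2 Fn1 UMIs, so the values of the 3 choices are not independent. Spock3, like Klhl1, stood higher in Control sub-cluster 2 than in Control sub-cluster 1, at 40.9 and 54.8 against 8.42 and 7.12 CPM. Luzp2 did not (40.9 and 55.8 against 51.6 and 60.2 CPM), and Egr1 did only in Control 2 (9.96 against 4.75 CPM). In Control, Luzp2 stood higher than in sub-cluster 1 in others such as 7 (381 and 302 CPM) and 8 (208 and 80.8 CPM). It stood lower in sub-clusters 4 and 9. The part of nuclei of other kinds in these rises was not tested. Klhl1, an actin-binding kelch protein, had 22.6 and 13.5 CPM in Control against 85.8 and 93.5 CPM in Kat6a-cKO in sub-cluster 1. Its log2 fold change was 2.27 ± 0.23 (edgeR adjusted p 4.27e-09) there and 1.44 ± 0.15 (adjusted p 0.00709) in members with 2 Fn1 UMIs. Klhl1 also rose in the Rspo2-poor nuclei, from 34.5 and 28.7 to 55.0 and 52.4 CPM (log2 fold change 0.78, adjusted p 0.0494). It did not pass the threshold in all members (0.35, adjusted p 0.411) or in CA3-marker nuclei (−0.08, adjusted p 0.973), and in sub-cluster 2, which it helps to define, it had 279 and 304 against 265 and 259 CPM. Luzp2, a leucine zipper protein, had 51.6 and 60.2 against 212 and 181 CPM, with log2 fold changes of 1.84 ± 0.15 (adjusted p 5.61e-11) and 1.48 ± 0.12 (adjusted p 0.00167). The value of Luzp2 was 0.47 (adjusted p 0.303) in all members, −0.33 (0.391) in Rspo2-poor nuclei and −0.26 (0.851) in CA3-marker nuclei. Spock3, a proteoglycan, had log2 fold changes of 2.52 ± 0.34 (adjusted p 1.59e-06) and 1.48 ± 0.23 (adjusted p 0.0432), and 1.92 in the sub-cluster without Kat6a-cKO 2. Egr1 had 2.15 ± 0.47 (adjusted p 0.00486) and 2.18 ± 0.34 (adjusted p 0.0483). In the sub-cluster Egr1 lost the threshold without Control replicate 1, Control replicate 2 or Kat6a-cKO replicate 1.

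By list, the calls of sub-cluster 1 fell as follows, against 0.913% of all genes called higher and 0.617% called lower. Of the R-spondins, receptors and ligases, 3 were tested and Rspo3 rose, from 11.0 and 3.17 to 27.3 and 18.8 CPM (log2 fold change 1.54 ± 0.40, edgeR adjusted p 0.0314). It rested on 21 and 4 UMIs in Control against 29 and 28 in Kat6a-cKO. In Control, Rspo3 stood higher in every other sub-cluster except 8, for example at 31.6 and 41.8 CPM in sub-cluster 2. The part of nuclei of other kinds in this rise was not tested. The value of Rspo3 was 1.53 (adjusted p 0.0845) with sub-clusters 1 and 8 pooled and 0.46 (adjusted p 0.75) in members with 2 Fn1 UMIs, and DESeq2 called 0 genes of this list. Of the axon guidance genes 25 were tested, of which 4 rose (Robo1, Dcc, Efna5 and Sema6d) and Unc5c fell, by 0.39 on the log2 scale (adjusted p 0.0171). Dcc lost the threshold without the 1 nucleus of the sub-cluster called a doublet (log2 fold change 0.97) and without Kat6a-cKO 2 (0.47). Of the potassium channel genes 22 were tested, and Kcnip1 and Kcnd3 rose. Of the glutamate receptors 19 were tested, and the kainate receptor subunit Grik1 rose, with a log2 fold change of 0.70 (adjusted p 0.000383). Of 18 cadherins Cdh13 rose and Cdh10 fell, and of 9 neuropeptides and growth factors Nrg1, the growth factor neuregulin, rose and Nts fell. Of 8 immediate early genes Egr1 rose, with 7 of 8 positive and a median log2 fold change of 0.18. Tshz2 was the only call among 22 transcription factors. With sub-clusters 1 and 8 pooled, Efna5, Unc5c, Kcnd3, Cdh10 and Nrg1 passed the threshold (adjusted p 0.000176 to 0.0326), and Sema6d (0.225) and Grik1 (0.213) did not. In members with 2 Fn1 UMIs none of these 7 genes passed it (adjusted p 0.0533 to 0.802). DESeq2 called fewer genes in several of these lists. It called 1 axon guidance gene and 1 potassium channel gene, both higher, 1 cadherin, lower, and 0 immediate early genes. Its counts for the glutamate receptors, the neuropeptides and growth factors and the transcription factors were those of edgeR. In the lists of Wnt ligands (2 tested), Wnt receptors (4), Wnt antagonists (2), β-catenin genes (7) and KAT6 complex genes (6), edgeR and DESeq2 called 0 genes and 0 reached an unadjusted p under 0.05, where 9.66% of all genes did.

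Other rises of sub-cluster 1 passed the threshold with sub-clusters 1 and 8 pooled but not in members with 2 Fn1 UMIs. Fstl5 had a log2 fold change of 3.13 (edgeR adjusted p 1.11e-09) in the sub-cluster, 3.29 (8.41e-06) in the pool and 1.08 (adjusted p 0.359) by Fn1 count, and 2.45 in the sub-cluster without Kat6a-cKO 1. Cdh13, a cadherin, had 2.51 (adjusted p 7.85e-08), 2.34 (2.34e-05) and 0.34 (0.84) in the same order, and in the sub-cluster 3.62 without Control 1 and an adjusted p of 0.164 with DESeq2. Kcnip1, a potassium channel partner, had 2.72 (adjusted p 2.35e-05), 2.46 (0.000746) and 0.52 (0.717), and it rose in Rspo2-poor nuclei as well (1.12, adjusted p 0.0277). Robo1, an axon guidance receptor, had 1.97 (adjusted p 6.01e-11), 1.97 (3.62e-06) and −0.36 (0.719). Hs3st4 had 2.26, 2.19 (adjusted p 0.000108) and −0.41 (0.834), and Dcc, the netrin receptor, 2.16, 2.06 (0.0171) and −1.09 (0.437). In the sub-cluster Dcc was at 12.6 and 14.2 CPM in Control, 17.9 CPM in Kat6a-cKO 1 and 93.5 CPM in Kat6a-cKO 2, and without Kat6a-cKO replicate 2 its value was 0.47 (adjusted p 0.841). Sub-cluster 1 held 1 nucleus called a doublet. Without that 1 nucleus the values of Dcc and Hs3st4 there were 0.97 (adjusted p 0.154) and 1.26 (adjusted p 0.012), and DESeq2 did not call Dcc. These rising genes stood higher in Control sub-cluster 2 than in Control sub-cluster 1. Fstl5 was at 295 and 217 against 11.0 and 13.5 CPM, and Cdh13 at 397 and 447 against 23.1 and 7.92 CPM. Kcnip1 was at 37.5 and 34.9 against 3.16 and 5.54 CPM, and Robo1 at 1168 and 966 against 37.3 and 36.4 CPM. Hs3st4 was at 455 and 403 against 15.8 and 14.2 CPM, and Dcc at 101 and 68.7 against 12.6 and 14.2 CPM. The part of nuclei of other kinds in these rises was not tested. St8sia2, a leading gene of sub-cluster 8, had −2.58 in sub-cluster 1, −0.67 (adjusted p 0.494) in the pool and −0.50 (adjusted p 0.772) in members with 2 Fn1 UMIs.

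Whether the genotype difference in members was unlike that in CA3-marker nuclei was tested as an interaction, with the library as a block. A minimum of Rspo2 chose the CA3-marker nuclei too, which numbered 217 and 199 in Control against 154 and 125 in Kat6a-cKO. Doublet calls made up 7.83% and 4.02% of them in Control against 13.0% and 9.60% in Kat6a-cKO, and 0.92% to 3.86% of members. The part of this make-up in the differences was not tested. The edgeR test called 12 of 13539 genes (0.0886%), 1 with a more positive (0.00739%) and 11 with a more negative difference (0.0812%) in the members. The count was 65, 73, 35 and 141 without Control 1, Control 2, Kat6a-cKO 1 and Kat6a-cKO 2. Among the genes named here Hpse2 had the largest, a log2 difference of −2.93 ± 0.44 (adjusted p 0.00854). The call was lost when Kat6a-cKO 1 was left out (adjusted p 0.056) and with a minimum of 6 Rspo2 UMIs (0.0652). Nxph1 differed by −2.83 ± 0.35 (adjusted p 0.00177), by −1.72 (adjusted p 0.304) with a minimum of 6 Rspo2 UMIs, by −1.91 without Kat6a-cKO 1 and by −3.61 without Kat6a-cKO 2. In CA3-marker nuclei it had 12.3 CPM or less in both Control libraries and 37.2 and 19.6 CPM in those of Kat6a-cKO, the opposite order to that in members. Kcnh8, a potassium channel, differed by −1.45 ± 0.22 (adjusted p 0.00778), and Rorb, a nuclear receptor of cortical layer 4, by −1.45 ± 0.23 (adjusted p 0.0154, and 0.094 without doublet calls). Kcnh8 and Rorb had their highest levels in sub-cluster 7. Within it Rorb was at 498 and 452 CPM in Control against 432 and 456 CPM in Kat6a-cKO. Trps1 differed by 0.82 ± 0.12 (adjusted p 0.00448), and by 0.42 (adjusted p 0.889) where members were limited to 0 CA3 marker UMIs.

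Against Rspo2-poor nuclei, the same test called 85 of 17151 genes (0.496%), 7 more positive (0.0408%) and 78 more negative (0.455%) in the members. The count was 15 without Kat6a-cKO 1 and 64 to 90 without the other libraries. Hpse2 again differed, by −2.71 ± 0.28 (edgeR adjusted p 0.00224, and 0.0531 without Kat6a-cKO 1). Chrm2, a muscarinic acetylcholine receptor, differed by −1.63 ± 0.15 (adjusted p 0.00111), with 35.6 and 27.5 against 20.3 and 22.2 CPM in members and 14.2 and 8.84 against 24.5 and 23.7 CPM in Rspo2-poor nuclei. Tshz2 differed by −1.58 ± 0.17 (adjusted p 0.00256). It too was lower in Kat6a-cKO members and higher in Kat6a-cKO Rspo2-poor nuclei, with 177 and 114 against 295 and 256 CPM in the latter. Within the members Chrm2 stood highest in sub-clusters 6, 7 and 11. Its genotypes overlapped in sub-clusters 6 (98.6 and 206 against 165 and 160 CPM) and 7 (437 and 153 against 176 and 266 CPM). They did not in sub-cluster 11, from 36 and 13 against 4 and 7 UMIs. Fewer such nuclei and less RNA per nucleus cannot be told apart for Chrm2 in the sums. Whrn, a scaffold protein, differed by −1.63 ± 0.20 (adjusted p 0.005, and 0.0707 without Kat6a-cKO 1). Fn1 in the Rspo2-poor nuclei was at 1.82 and 2.73 CPM in Control against 4.87 and 4.37 CPM in Kat6a-cKO. A nucleus with less Rspo2 RNA leaves the members and joins the Rspo2-poor set, and the part of such moves in these differences was not tested. Among genes with a more positive difference, Luzp2 stood at 0.81 ± 0.15 (adjusted p 0.0413) and Pde11a, a phosphodiesterase, at 0.75 ± 0.10 (adjusted p 0.0097). Both lost the threshold without Control 1 (0.235 and 0.0601) and without Kat6a-cKO 1 (0.442 and 0.0531), Luzp2 also without Kat6a-cKO 2 (0.0545) and without doublet calls (0.0528), and Pde11a also with 0 CA3 marker UMIs (0.0543).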

How the data were processed

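The authors deposited raw counts, whole UMI numbers per barcode and gene, as 1 matrix for each of the 4 libraries with empty droplets included. Per the labels' protocols, nuclei of dissected hippocampus were purified on an iodixanol gradient and put through the 10x Genomics Chromium kit. The submitters' processing notes name mm10 and Seurat 4.0.1 without a role. The aligner, counter, annotation release and counting strand are not given in the sources used here, so reads of overlapping genes on opposite strands may not be told apart. The total counts were 186897245 and 183440076 in Control against 177249737 and 171323466 in Kat6a-cKO. Of 55422 gene IDs, 54587 matched GENCODE M21 with their version, 567 without it, and 268 did not match.

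Counts of the nuclei of each set were summed per library, and genotypes were compared with edgeR 4.0.16 in R 4.3.3 (TMM, filterByExpr, quasi-likelihood test, Benjamini-Hochberg adjustment over all genes, threshold 0.05). The 8 gate genes (Rspo2, Slc17a7, Nectin3, Bicc1, Cd109, Prox1, Gad1 and Gad2) were left out of the tests. Interactions were fitted on 8 sums with the library as a block. CPM were taken without TMM factors, and log2 fold changes come from the TMM fit. Intervals were not given for CPM, whose precision is set by the UMI counts and covers counting error only. Positions are 1-based.

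Members were clustered with scanpy 1.11.5 and leidenalg 0.10.2 (10000 UMIs per nucleus, 2000 variable genes, 30 components, 15 neighbours, resolution 0.5, seed 0), without gate and mitochondrial genes. A sub-cluster took a name where at least 3 markers and at least 50% of a class were raised at least 2-fold with 5 CPM added. It stayed unnamed where another class had more raised markers or the class was glial. Cluster sizes were not compared between genotypes. Scrublet calls (expected rate 0.06) were kept, and leaving them out was an alternative. For the share, a further alternative thinned every nucleus to 5000 UMIs with a minimum of 2 Rspo2 UMIs.

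The members, gene lists and tests were chosen with earlier results of these data known. Named genes were drawn from the called genes, up to 10 in each direction, with at least 10 CPM in the higher genotype and no overlap of genotypes. They were filled to 5 in each direction by smallest p. From the lists, called genes were named, with some but not all of the genes of smallest p and of the most abundant ones. Luzp2 and Robo1 in sub-cluster 1 and the additional settings by sub-cluster and Fn1 count were chosen after the values had been seen. The test was tested on simulated data for the comparison of all members: of 194 genes changed by a log2 value of 1 and tested, 129 were called, with 1 unchanged gene among 12697 genes run. DESeq2 1.42.0, other filters and scalings, other gates and leaving out each library were tried as alternatives.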

Additional observations from a re-analysis of the deposited data

Results flagged for a closer look

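The genotype difference of 6 named genes was tested as unlike in members and in CA3-marker nuclei. On the log2 scale, the difference in members minus that in CA3-marker nuclei was −2.93 for Hpse2, −2.83 for Nxph1, −1.45 for Rorb, −1.45 for Kcnh8 and 0.82 for Trps1, each with the values given above. For Erbin, a scaffold protein, it was −1.84 (edgeR adjusted p 0.0307). Erbin had 11.2 and 6.98 against 6.72 and 6.00 CPM in members and 7.83 and 8.72 against 22.6 and 18.4 CPM in CA3-marker nuclei. Erbin lost the threshold under 5 of 10 other settings, without Control 1 (adjusted p 0.203) or Kat6a-cKO 1 (0.0506), with a minimum of 6 Rspo2 UMIs (0.275), with 0 CA3 marker UMIs (0.264) and without doublet calls (0.0645). Kcnh8 kept the threshold under all 10 other settings tried, none of which left out sub-cluster 7. That sub-cluster held 309 of 322 and 268 of 277 Kcnh8 UMIs of members in Control. In Kat6a-cKO it held 139 of 154 and 220 of 243. Its nuclei numbered 24 and 24 in Control against 12 and 16 in Kat6a-cKO, and the part of these numbers in the difference was not tested.

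The difference was tested as unlike in members and in Rspo2-poor nuclei for 10 named genes. It was −2.71 for Hpse2, −1.63 for Whrn, −1.63 for Chrm2, −1.58 for Tshz2, 0.81 for Luzp2 and 0.75 for Pde11a. Chrm2 and Tshz2 kept the threshold under all 10 other settings tried, none of which left out a sub-cluster. For Sv2c it was −2.47 (edgeR adjusted p 0.0457), which was lost without Control 1 (0.0771), Kat6a-cKO 1 (0.485) or Kat6a-cKO 2 (0.263). For Vcan, an extracellular matrix proteoglycan, it was 1.44 (adjusted p 0.0164), with 6.16 and 4.15 against 12.2 and 9.50 CPM in members and 20.5 and 20.6 against 17.6 and 14.0 CPM in Rspo2-poor nuclei. Vcan lost the threshold under 4 of 10 other settings, with adjusted p up to 0.22, among them without Kat6a-cKO 1 (0.22) or Kat6a-cKO 2 (0.0585). Vcan is also 1 of the 4 listed markers of oligodendrocyte precursors, which summed to 8.48 and 5.85 against 15.7 and 14.3 CPM in members and to 29.2 and 29.0 against 25.7 and 19.9 CPM in Rspo2-poor nuclei. Olig1 of that list had 5 and 5 against 13 and 15 UMIs in members, and the part of these markers in the result was not tested. For Diaph3 it was 1.19 (adjusted p 0.0382), which was lost under 6 of 10 other settings, with adjusted p up to 0.504, among them without any 1 of the 4 libraries. For Col11a1, a fibrillar collagen, it was 1.12 (adjusted p 0.0183), with 8.21 and 11.3 against 25.2 and 16.8 CPM in members, and it was lost under 5 of 10 other settings, with adjusted p up to 0.355, among them without Control 1 (0.0837) or Kat6a-cKO 1 (0.245).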

How the results depend on the processing

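The count of genes called in all members was 2. It was 6 with RLE size factors, 171 without a low-count filter, 1 with a minimum of 10 CPM, 16 with DESeq2, 4 with 0 CA3 marker UMIs, 6 without doublet calls and 16 with an Rspo2 minimum scaled to depth. It was 134 in sub-cluster 1 only and 5 to 222 with 1 library left out. Without sub-clusters 1, 3, 4, 7, 8, 9, 10 and 11 in turn it was 1, 6, 18, 7, 6, 13, 1 and 1. It was 116 in the Fn1-rich sub-clusters 1 and 8 and 1 without them. In sub-cluster 1, where the main count was 134, it was 43 with DESeq2, 12 in members with 2 Fn1 UMIs and 54 to 144 with 1 library left out. Gm3279 in sub-cluster 1 kept the threshold under 5 of 10 settings. The interaction counts were 12 against CA3-marker nuclei and 85 against Rspo2-poor nuclei. Without a filter they were 75 and 221, with 0 CA3 marker UMIs 7 and 150, and with 1 library left out 35 to 141 and 15 to 90. The share difference of −0.199 percentage points turned to 0.122 with 0 CA3 marker UMIs, 0.0561 after thinning and 0.248 over all nuclei, and ranged from −1.17 to 0.773 with 1 library left out. Nxph1 turned to 1.86 without sub-cluster 7, and Luzp2, at 0.47 in all members, to −0.083 without sub-clusters 1 and 8. With 2 Fn1 UMIs, Hs3st4, Dcc and Robo1 turned to −0.41, −1.09 and −0.36. The cause of these changes was not tested. Of the named genes, Gm3279 passed in all members under 29 of 29 settings and Hpse2 under 24 of 29.

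The titles share replicate numbers, but the labels do not tie them to a litter or day, and deviations of same-numbered libraries correlated at 0.064 over 12974 genes. With the replicate number as a block, 17 genes were called in all members and 226 in sub-cluster 1. The interaction fits already hold the library as a block, so no further replicate block was fitted there. With 2 libraries per genotype, a library left out leaves 1 alone, whose spread is assumed to be that of the other group. Depth limits genes such as Fos, with 9 and 10 UMIs in Control members.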
